A study of Mus musculus with 4 samples.

Results

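Molecular chaperones are proteins that help other proteins fold, stay soluble and cross membranes. The 79 genes described here encode those of the cytosol and mitochondria: the Hsp70, Hsp110 and Hsp90 families, the small heat shock proteins, mitochondrial Hsp60 and Hsp10, the J-domain proteins that deliver clients to Hsp70, the subunits of the ring-shaped cytosolic chaperonin TRiC, and Hsf1, the transcription factor that switches many of them on after heat or protein damage. They were taken by gene symbol from the 23359 rows of the expression table, leaving out Hspa5, Dnajb9, Dnajb11 and Dnajc3 of the endoplasmic reticulum (ER). The symbol rule reaches beyond the 2 compartments. For example, Hspa13, Dnajc1 and Dnajc10 encode ER proteins, and Hspb11 encodes a protein of cilia transport. Dnajb12 and Dnajb14 encode J-domain proteins anchored in the ER membrane.

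RNA came from 4 cultures of tumour-initiating stem-like cells (TICs), a stem-like population isolated from liver tumours of C57BL/6 mice and grown with serum, EGF and dexamethasone. All groups share these cells and this medium. The ATRA culture received all-trans retinoic acid, which activates retinoic acid receptors, at 5 µg/ml. The SAHA culture received suberoylanilide hydroxamic acid, which inhibits histone deacetylases, at 0.5 µg/ml. The combination culture received both, with no separate dose stated. These treatments lasted 16 hours. The vehicle culture received the control solution, for a time that is not stated. The sources used here do not give the age of the mice or how many tumours or isolations the cells came from. Each group had 1 library, so none of the differences below could be checked against replicates, and p-values and errors are absent throughout. In RNA from whole cultures, fewer cells of a kind and less RNA per cell cannot be told apart.

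Levels are given in FPKM, the number of fragments for each kilobase of a transcript, scaled to sequencing depth. A gene was counted when its mean over the 4 libraries was at least 1 FPKM, which 58 of the 79 chaperone genes and 8616 genes in all reached. Differences are of log2(FPKM + 1), a scale that understates those of low genes, and a difference of 1 or more, that is 2-fold on FPKM + 1, made a gene higher or lower. Folds in the text are ratios of FPKM itself. The 21 chaperone genes below the filter reached at most 1.61 FPKM in any library and differed by at most 0.89 on the log2 scale. They are 13 J-domain genes, Hspa12a, Hspa12b, Hspb2, Hspb3, Hspb7, Hspb9, Hspbap1 and Cct8l1. As markers of the labelled liver origin, 5 hepatocyte genes were near 0, with Alb at 0.0108 FPKM and Afp at 0.0983 in the vehicle library, and of 4 mesenchymal genes, Vim was at 562 FPKM there, Pdgfrb at 1.55, Col3a1 at 0.0465 and Col1a1 at 0.0207.

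The SAHA library differed in composition. The row Gm20594 held 33.9% of its summed FPKM, against 18.0% in the vehicle library. Rows outside the 10 highest of any library summed to 102678 FPKM with SAHA, against 138702 with vehicle. When libraries were rescaled to these sums, the median difference of all counted genes for SAHA against vehicle was 0.20, in place of -0.12 as deposited. The same median moved to -0.13 for ATRA against vehicle, where it was 0.00 as deposited, to -0.11 for the combination against vehicle, where it was 0.04, and to -0.32 for the combination against SAHA, where it was 0.14. Below, "rescaled" means this setting.

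Chaperone genes stayed close to their vehicle levels with ATRA and mostly did so with SAHA and with the combination. Of 58 counted members, 49 passed the 2-fold mark in none of the 5 comparisons. For ATRA against vehicle, 0 members were higher and 0 lower, where 0.917% of all counted genes were higher and 1.2% lower. The median over members was 0.03 on the log2 scale, beside 0.00 over all counted genes, and -0.10 beside -0.13 when rescaled. For SAHA against vehicle, 1 member was higher and 3 lower, with a background of 7.88% and 16% of all counted genes. Together these 4 genes are 6.90% of the counted members, and 23.9% of all counted genes were called in that comparison. Rescaled, 8 members were higher with SAHA (Dnajb7, Dnajc15, Dnajc16, Hspa13, Hspa1a, Hspa1b, Hspa1l and Hspa2). The share of all counted genes past the mark was not computed when rescaled. The 7.88% is therefore no background for these 8, and the rescaled counts below have none either. As deposited, the members' median was 0.02, beside -0.12 over all counted genes. Rescaled, it was 0.41 beside 0.20.

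With both compounds against vehicle, 2 members were higher and 2 lower, with a background of 11.1% and 12.6%. The members' median was 0.22, beside 0.04 over all counted genes, and 39 of 58 members had a difference above 0. Rescaled, these medians were 0.06 and -0.11. The combination was then set against each compound. Against SAHA alone, 0 members were higher and 0 lower (background 3.04% and 0.929%), with a median of 0.24 over members and 0.14 over all counted genes. Rescaled, that direction turned, with medians of -0.37 and -0.32 and with Dnajb4 and Hspb1 lower. Against ATRA alone, 4 members were higher and 2 lower (background 10.5% and 11.9%), with a median of 0.19 over members and 0.04 over all counted genes. All comparisons with vehicle share the same vehicle library, and all those of the combination share the same combination library.

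**Figure D1:**
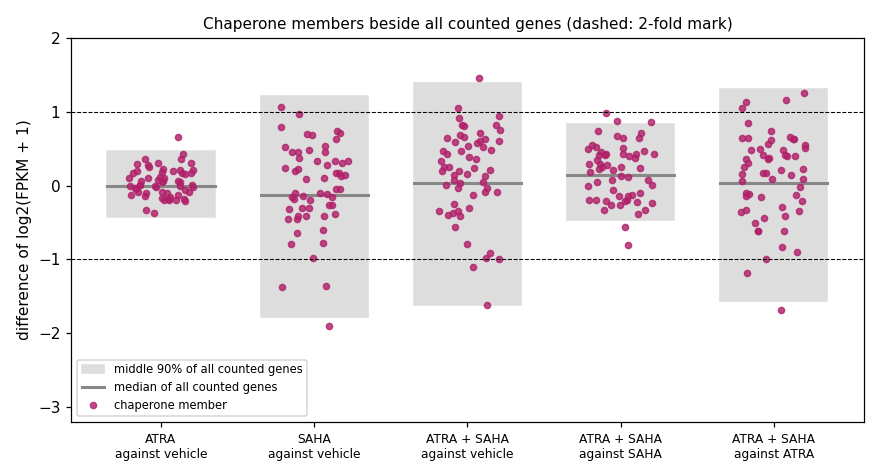
Difference of log2(FPKM + 1) on the vertical axis for the 58 counted chaperone genes (points, spread sideways for legibility) in each of 5 comparisons, with the middle 90% (grey box) and the median (grey line) of 8616 counted genes. No chaperone gene passes the dashed 2-fold marks for ATRA against vehicle or for the combination against SAHA.

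Added over all 79 genes, chaperone transcripts came to 1805 FPKM with ATRA, 1420 with SAHA, 1602 with both compounds and 1588 with vehicle. That was 0.593%, 0.550%, 0.518% and 0.595% of each library's summed FPKM, in the same order. Of the rows outside the 10 highest it was 1.15%, 1.38%, 0.995% and 1.14%, so the SAHA share was below that of vehicle by the first measure and above it by the second. Hspa8, Hsp90ab1 and Hsp90aa1 supplied 55.1% of the chaperone sum with ATRA, 51.9% with SAHA, 48.0% with both and 52.3% with vehicle. The sum therefore mostly follows these 3 genes.

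Hsp70 proteins bind exposed hydrophobic stretches of unfolded proteins and release them on ATP exchange. Hspa8, the constitutive cytosolic member, had the highest mean of all 79 genes, at 463 FPKM with ATRA, 410 with SAHA, 347 with both and 380 with vehicle. As deposited, its lowest and highest libraries are the combination and ATRA, and it differed from vehicle by at most 0.28 on the log2 scale. Rescaled, it stood at 0.11 with ATRA, 0.54 with SAHA and -0.35 with both against vehicle, so SAHA was then highest. Exons of Hspa8 overlap those of Snord14c and Snord14d, and their part in its value was not tested. Hspa1a, a stress-inducible member, was at 2.55 FPKM with ATRA, 4.11 with SAHA, 4.90 with both and 2.12 with vehicle. Hspa1b, its near-identical copy, was at 4.65 FPKM with ATRA, 6.35 with SAHA, 7.05 with both and 3.58 with vehicle. The 2 genes had the same order of libraries, with the combination highest and vehicle lowest. Against vehicle, they stood at 0.71 and 0.68 on the log2 scale with SAHA and at 0.92 and 0.82 with both compounds, short of the 2-fold mark. Rescaled to rows outside the 10 highest, each stood at 1.07 with SAHA, past the mark.

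The longest annotated transcripts of Hspa1a and Hspa1b were 99.1% identical over 2200 aligned bases, so the split of reads between these genes is uncertain. Their sum was 7.20 FPKM with ATRA, 10.5 with SAHA, 12.0 with both and 5.70 with vehicle, a 2.10-fold difference between the combination and vehicle. The upstream sequences are shown because the genes also share them. The stretches before the start sites (Hspa1a chr17:34972157-34972406 and Hspa1b chr17:34959239-34959488, both minus strand, RefSeq promoters on GRCm38.p6) differ at 3 of 250 bases. Capitals mark the letters GAANNTTC, the inverted repeat at the core of the heat shock element that Hsf1 binds.
Hspa1a: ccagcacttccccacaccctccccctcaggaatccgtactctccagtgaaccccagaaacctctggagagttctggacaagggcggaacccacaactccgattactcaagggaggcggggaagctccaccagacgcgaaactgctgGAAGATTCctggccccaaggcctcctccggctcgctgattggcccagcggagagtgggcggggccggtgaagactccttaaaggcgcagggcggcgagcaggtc
Hspa1b: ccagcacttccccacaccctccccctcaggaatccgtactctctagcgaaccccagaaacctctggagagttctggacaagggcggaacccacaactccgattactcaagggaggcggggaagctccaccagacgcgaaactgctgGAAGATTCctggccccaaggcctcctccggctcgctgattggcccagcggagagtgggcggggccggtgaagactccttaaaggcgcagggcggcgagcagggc

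Hspa1l lies 547 bases from the start of Hspa1a and is read in the other direction (chromosome 17, 34972703 to 34979285, plus strand). It is known mainly from testis. It was at 1.13 FPKM with ATRA, 2.61 with SAHA, 4.06 with both and 0.847 with vehicle. It was higher with both compounds than with vehicle, 4.79-fold or 1.45 on the log2 scale, and higher with both than with ATRA, at 1.25. The combination was the highest library and vehicle the lowest, as for Hspa1a and Hspa1b. The Hspa1l transcript matched that of Hspa1a at 84.2% identity over 1841 bases, and a contribution of reads from Hspa1a was not tested. Hspa2, another member best known from testis, was at 1.71 FPKM with ATRA, 4.03 with SAHA, 3.19 with both and 1.40 with vehicle (chromosome 12, 76404176 to 76406938, plus strand). It was the member called higher with SAHA, 2.88-fold or 1.07 on the log2 scale.

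Among Hsp70-related genes, Hspa14 encodes a ribosome-associated relative of Hsp70. It was at 3.83 FPKM with ATRA, 5.27 with SAHA, 8.96 with both and 3.83 with vehicle (chromosome 2, 3488850 to 3512814, minus strand). It was called higher with both compounds, at 1.04 against vehicle and 1.05 against ATRA on the log2 scale. After rescaling to rows outside the 10 highest these were 0.85 and 0.99, below the mark. Hspa13 of the ER was at 4.40 FPKM with ATRA, 5.73 with SAHA, 4.77 with both and 3.03 with vehicle, all within the mark.

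Hsp110 proteins exchange nucleotide on Hsp70. Hsph1, the heat-inducible one, was at 3.47 FPKM with ATRA, 2.57 with SAHA, 2.56 with both and 1.82 with vehicle. Its 0.66 with ATRA was the highest difference of any counted member in that comparison. Hspa4 was at 13.6 FPKM with ATRA, 18.2 with SAHA, 25.3 with both and 15.8 with vehicle, and Hspa4l at 6.21, 4.04, 4.32 and 5.73 FPKM in those libraries. Hsph1 and Hspa4l were highest with ATRA and Hspa4 with both, and none of the 3 passed the mark in any comparison.

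Hsp90 proteins hold kinases and steroid receptors in a form that can be activated. Hsp90ab1, the constitutive cytosolic gene, was at 382 FPKM with ATRA, 185 with SAHA, 249 with both and 322 with vehicle (chromosome 17, 45567775 to 45573271, minus strand). Hsp90aa1, the stress-inducible gene, was at 149 FPKM with ATRA, 142 with SAHA, 173 with both and 128 with vehicle (chromosome 12, 110690605 to 110702728, minus strand). Neither passed the mark, and Hsp90ab1 stood at -0.79 for SAHA against vehicle, or -0.36 rescaled. Their balance differed between libraries. The ratio of Hsp90aa1 to Hsp90ab1 within a library was 0.391 with ATRA, 0.768 with SAHA, 0.693 with both and 0.398 with vehicle. A ratio within a library does not depend on scaling between libraries. The transcripts were 76.1% identical over 2171 aligned bases.

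Mitochondrial chaperones receive proteins imported from the cytosol: Hspa9 (mortalin, on chromosome 18) pulls them in, and the Hspd1 barrel with its Hspe1 lid folds them. Hspa9 was at 73.5 FPKM with ATRA, 19.2 with SAHA, 39.0 with both and 74.6 with vehicle. It was lower with SAHA than with vehicle, by a factor of 3.88 or -1.90 on the log2 scale, the lowest value of any counted member in that comparison. The ATRA and vehicle libraries lay close together, SAHA was lowest, and the combination lay between, at -0.92 against vehicle and 0.99 against SAHA. Rescaled to rows outside the 10 highest, the SAHA value was -1.49 against vehicle, and the combination stood at -1.13 against vehicle and 0.36 against SAHA.

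Hspd1, which encodes Hsp60, was at 74.4 FPKM with ATRA, 36.0 with SAHA, 48.2 with both and 71.7 with vehicle. Its difference for SAHA against vehicle, -0.98, was just short of the mark, and was -0.55 rescaled. Hspe1, which encodes Hsp10, was at 70.7 FPKM with ATRA, 71.9 with SAHA, 99.7 with both and 65.8 with vehicle. The ratio of Hspe1 to Hspd1 was 0.951 with ATRA, 2.0 with SAHA, 2.07 with both and 0.918 with vehicle, so both libraries with SAHA had about 2 Hspe1 fragments per kilobase for each of Hspd1.

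The 2 genes are read away from each other from start sites 216 bases apart (Hspe1 from 55088148 on the plus strand and Hspd1 from 55087932 on the minus strand of chromosome 1). A longer annotated form of Hspd1 starts within Hspe1, so reads over that overlap cannot be assigned. The 30 bases at chr1:55088053-55088082 (plus strand, RefSeq promoter on GRCm38.p6) are shown because they lie between both start sites and hold an unbroken run of GAANNTTC and TTCNNGAA units, in capitals.
Hspe1: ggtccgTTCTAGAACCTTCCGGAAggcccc

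The letters GAANNTTC followed directly by NNGAA, on either strand, were searched in RefSeq windows from 250 bases before to 50 after each start site. Windows were found for 63 of the 79 chaperone genes, and 4 of these held a match (Dnajb6, Hspd1, Hspe1 and Hsph1), or 6.35%, against 0.662% of 27025 genes. The run shown above lies in the windows of both Hspd1 and Hspe1, so the same site counts for both. The shorter GAANNTTC, which the longer motif contains, was found for 16 of 63 chaperone genes, or 25.4%, against 9.04% of all genes. These 16 include Hspa1a and Hspa1b with their near-identical stretches, and again both Hspd1 and Hspe1. The other unit, TTCNNGAA, was found for 8 of 63, or 12.7%, against 9.60% of all genes. The genes with the longer match did not share a pattern of levels: for SAHA against vehicle Dnajb6 stood at 0.52 on the log2 scale, Hspd1 at -0.98, Hspe1 at 0.13 and Hsph1 at 0.34. A match describes letters and does not show binding.

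Of the J-domain genes of mitochondria, Dnaja3 and Dnajc15 passed the mark for the combination against ATRA and, as deposited, in no other comparison. Dnaja3 (Tid1), a mitochondrial partner of Hspa9, was at 4.58 FPKM with ATRA, 5.82 with SAHA, 11.5 with both and 6.04 with vehicle. It was higher with both compounds than with ATRA, 2.5-fold or 1.16 on the log2 scale. The 3 other libraries lay between 4.58 and 6.04 FPKM, below the combination. Exons of Dnaja3 overlap those of Coro7 and Vasn in the annotation. Coro7 was at 0.305, 0.619, 0.856 and 0.353 FPKM with ATRA, SAHA, both and vehicle, and Vasn at 10.8, 7.59, 5.03 and 11.5 FPKM in that order. Their part in the Dnaja3 value was not tested.

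Dnajc15, an inner-membrane J-domain protein of the import motor, was at 5.31 FPKM with ATRA, 10.7 with SAHA, 12.8 with both and 6.19 with vehicle. It was higher with both than with ATRA, at 1.13 on the log2 scale, and both libraries with SAHA lay above those without. Dnajc19, a related gene of the import motor, was at 5.50 FPKM with ATRA, 2.85 with SAHA, 5.03 with both and 4.27 with vehicle. Over the 8 mitochondrial members (these 6, Dnajc11 and Dnajc30), the sum was 239 FPKM with ATRA, 152 with SAHA, 222 with both and 234 with vehicle. The sum mostly follows Hspa9, Hspd1 and Hspe1. With SAHA, 1 of the 8 was called lower, where 16% of all counted genes were, so the count does not set these members apart.

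Partner genes of the mitochondrial system outside the symbol rule came from a list of 16, of which 15 were counted. With SAHA 2 were higher and 0 lower than with vehicle, where 7.88% and 16% of all counted genes were. With both compounds 4 were higher and 0 lower, where 11.1% and 12.6% were. Grpel1, a nucleotide exchange factor of Hspa9, was at 3.03 FPKM with ATRA, 9.41 with SAHA, 11.8 with both and 3.04 with vehicle. The proteases Afg3l2, Clpx and Lonp1, Clpx being the unfoldase of the ClpXP protease, were 3.28-fold, 3.01-fold and 2.63-fold higher with both compounds than with vehicle. Grpel2, the other exchange factor, was at 4.26 FPKM with ATRA, 4.60 with SAHA, 5.44 with both and 4.76 with vehicle, within the mark.

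Small heat shock proteins hold unfolding proteins without ATP. Hspb8 was at 11.1 FPKM with ATRA, 3.53 with SAHA, 2.78 with both and 10.6 with vehicle (chromosome 5, 116408491 to 116422864, minus strand). It was lower with SAHA (-1.35 on the log2 scale) and with both compounds (-1.62) than with vehicle, and lower with both than with ATRA (-1.68). Both libraries with SAHA lay below both without. Hspb1, which encodes Hsp27, was at 59.7 FPKM with ATRA, 45.8 with SAHA, 25.8 with both and 56.6 with vehicle (chromosome 5, 135887919 to 135889563, plus strand). It was lower in the combination, at -1.11 against vehicle and -1.18 against ATRA, while SAHA alone stood at -0.30, or at 0.13 after rescaling to rows outside the 10 highest.

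Hspb6 was at 1.35 FPKM with ATRA, 0.165 with SAHA, 0.537 with both and 2.03 with vehicle. It was called lower with SAHA, at -1.38. Rescaled, its difference was -1.31, but its mean of 0.984 FPKM no longer passed the filter. It overlaps exons of Lin37, which was at 0.913, 1.18, 1.80 and 0.561 FPKM in those libraries. Hspb6 was highest and Lin37 lowest with vehicle, and the part of shared reads in either value was not tested. Hspb11, the cilia transport gene, was at 5.18 FPKM with ATRA, 4.95 with SAHA, 8.76 with both and 5.41 with vehicle. Of the 4 counted genes of this symbol family, 2 were lower with SAHA, Hspb6 among them, and 2 with both compounds. Of all counted genes, 16% were lower with SAHA and 12.6% with both.

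Bag3 and Cryab were taken from the other lists to set beside Hspb8, and they do not stand for those lists. Of the 27 counted cochaperones, Bag3 among them, 14 differed from vehicle above 0 and 13 below 0 with both compounds. Stub1, also listed, went the other way, at 0.58 with SAHA and 0.78 with both. Bag3, the cochaperone that joins Hspb8 to Hsp70, was at 5.20 FPKM with ATRA, 2.67 with SAHA, 1.89 with both and 6.03 with vehicle, and was called lower in the combination at -1.28. Cryab, the small heat shock protein alphaB-crystallin, which the symbol rule does not reach, was at 4.45 FPKM with ATRA, 0.550 with SAHA, 0.706 with both and 6.36 with vehicle. Its differences from vehicle were -2.25 with SAHA and -2.11 with both.

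**Figure D2:**
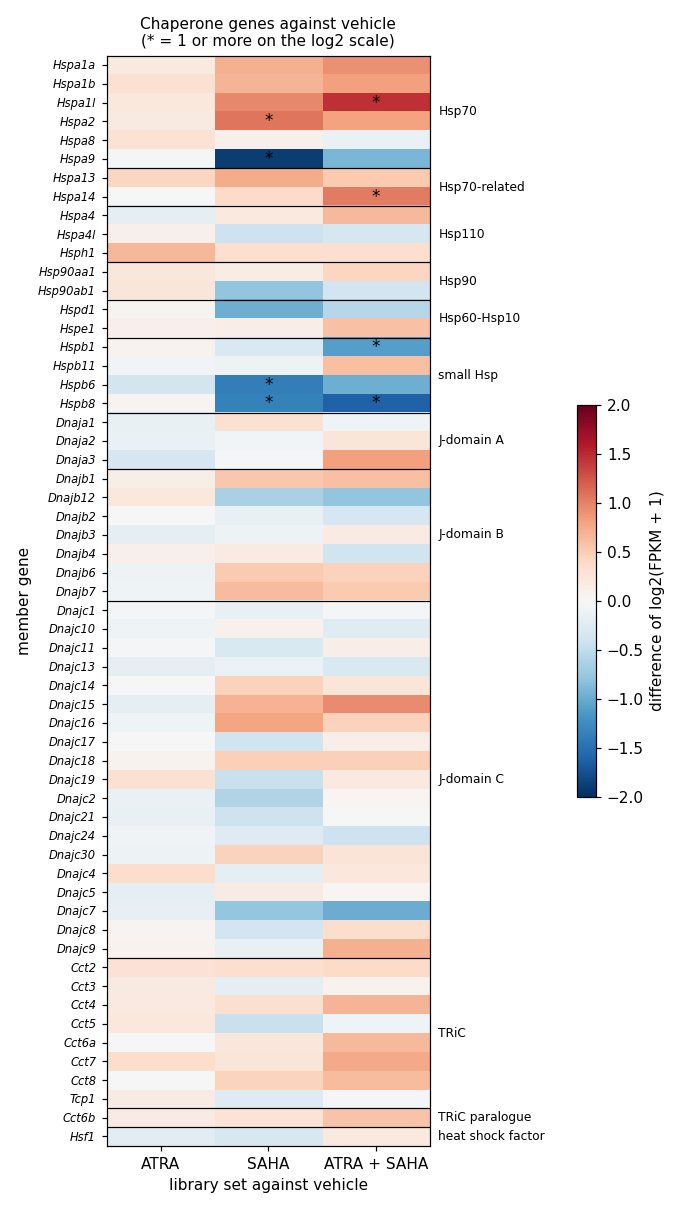
Colour gives the difference of log2(FPKM + 1) from vehicle for each of the 58 counted chaperone genes (rows, grouped by family) in the ATRA, SAHA and combination libraries (columns), and asterisks mark differences of 1 or more. The ATRA column is pale throughout, and the asterisks fall on Hsp70-type and small heat shock protein genes.

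J-domain genes were 29 of the 58 counted members. Against vehicle 0 of the 29 were higher and 0 lower with ATRA, with SAHA or with both. Of all counted genes, 0.917% were higher and 1.2% lower with ATRA, so few calls were to be had there. The shares were 7.88% and 16% with SAHA and 11.1% and 12.6% with both. Rescaled, Dnajb7, Dnajc15 and Dnajc16 were higher with SAHA and Dnajc7 was lower with both. As deposited, the medians of the 29 were -0.08 with ATRA, -0.10 with SAHA and 0.16 with both. Dnajb1, the heat-inducible partner of Hsp70, was at 4.12 FPKM with ATRA, 5.81 with SAHA, 6.18 with both and 3.71 with vehicle. Dnaja1, a broadly expressed partner, was at 3.99 FPKM with ATRA, 5.81 with SAHA, 4.19 with both and 4.52 with vehicle, and Dnaja2 at 10.8, 11.5, 14.2 and 11.9 FPKM in those libraries. Dnajb6, which suppresses aggregation of polyglutamine proteins, was at 8.76 FPKM with ATRA, 14.0 with SAHA, 13.4 with both and 9.43 with vehicle. Dnajb4 was at 4.24, 4.47, 2.69 and 3.86 FPKM in that order, and Dnajb2 at 1.99, 1.67, 1.34 and 1.96.

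Other J-domain genes differed in both directions within the mark. Dnajc7, which links Hsp70 to Hsp90, was at 2.71 FPKM with ATRA, 1.43 with SAHA, 1.10 with both and 3.16 with vehicle, a difference of -0.99 for the combination. Dnajb12 of the ER membrane was at 7.78 FPKM with ATRA, 3.87 with SAHA, 3.40 with both and 6.61 with vehicle, a difference of -0.79. Dnajc9, a histone chaperone, was at 5.10 FPKM with ATRA, 4.26 with SAHA, 8.52 with both and 4.82 with vehicle, a difference of 0.71. Hsf1 itself was at 2.37 FPKM with ATRA, 2.12 with SAHA, 3.44 with both and 2.89 with vehicle, within the mark in all 5 comparisons. RNA levels do not show the activity of Hsf1 protein, which is set by its assembly and modification.

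**Figure D3:**
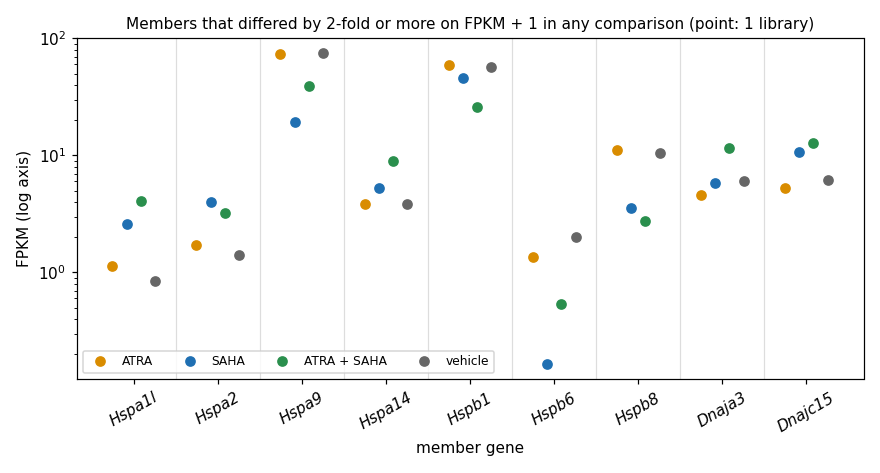
FPKM on a log axis for the 9 chaperone genes that passed the 2-fold mark in any comparison, with 1 point per library. Hspb8 lies near 10 FPKM in the ATRA and vehicle libraries and near 3 in the 2 libraries with SAHA, and Hspa9 is lowest with SAHA.

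TRiC folds actin and tubulin and holds each of its 8 subunits in equal number. Their summed level was 339 FPKM with ATRA, 306 with SAHA, 376 with both and 295 with vehicle. No subunit gene passed the mark in any of the 5 comparisons. Of all counted genes, 2.11% passed it for ATRA against vehicle and 3.97% for the combination against SAHA. The share was 23.9% for SAHA and 23.7% for the combination against vehicle, and 22.4% for the combination against ATRA. Cct5 was at 80.4 FPKM with ATRA, 50.6 with SAHA, 65.7 with both and 69.6 with vehicle. Cct7 was at 34.6 FPKM with ATRA, 31.9 with SAHA, 46.1 with both and 26.9 with vehicle, a difference of 0.76 with both against vehicle, or 0.55 rescaled. Cct4, Cct6a and Cct8 stood at 0.68, 0.65 and 0.63 with both compounds, while Tcp1, Cct3 and Cct5 stood at -0.03, 0.07 and -0.08. Cct2 was at 63.5, 65.4, 67.8 and 51.7 FPKM with ATRA, SAHA, both and vehicle. The subunit transcripts were not equal within a library: the highest was 4.20 times the lowest with ATRA, 3.85 times with SAHA, 3.34 times with both and 3.64 times with vehicle. Of 10 counted prefoldin and TRiC partner genes, 0 were higher and 0 lower against vehicle with SAHA or with both. Of all counted genes, 7.88% were higher and 16% lower with SAHA, and 11.1% and 12.6% with both.

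**Figure D4:**
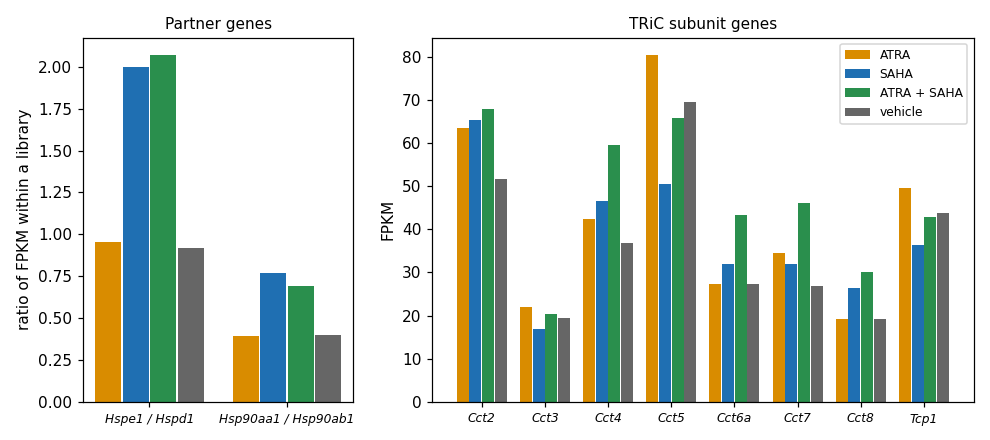
Left, the ratio of FPKM within each library for Hspe1 over Hspd1 and Hsp90aa1 over Hsp90ab1; right, FPKM of the 8 TRiC subunit genes, with bars for ATRA, SAHA, the combination and vehicle and 1 library per bar. Both ratios are higher in the 2 libraries with SAHA than in the ATRA and vehicle libraries.

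Cochaperones steer Hsp70 and Hsp90 and lie outside the symbol rule. Of 27 counted from a list of 28, 3 were higher and 1 lower with SAHA than with vehicle, and 4 were higher and 2 lower with both compounds. Those 4 and 2 of 27 stand beside 11.1% and 12.6% of all counted genes, and the SAHA counts beside 7.88% and 16%. Stip1 (Hop), which hands clients from Hsp70 to Hsp90, was at 19.5 FPKM with ATRA, 40.4 with SAHA, 56.1 with both and 15.7 with vehicle. Ttc1 was at 3.69 FPKM with ATRA, 15.4 with SAHA, 18.3 with both and 3.72 with vehicle, and Unc45a, a myosin chaperone that binds Hsp90, at 1.83, 6.49, 5.83 and 1.95 FPKM in that order. Nudc was 2.62-fold higher with both than with vehicle. Bag2, an inhibitor of the ubiquitin ligase that serves Hsp70, was at 13.0 FPKM with ATRA, 3.98 with SAHA, 2.28 with both and 13.4 with vehicle, and with Bag3 made the 2 lower genes.

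A list of 23 known Hsf1 targets, 13 of them chaperone genes already described, had 1 higher and 3 lower with SAHA than with vehicle. Of all counted genes, 7.88% were higher and 16% lower in that comparison. With both compounds 2 of the 23 were higher and 5 lower than with vehicle, where 11.1% and 12.6% of all counted genes were. The median was -0.09 beside 0.04 over all counted genes. Stip1 was among the higher ones. The lower ones were Hspb1, Hspb8, Bag3, Cryab and Serpinh1, the collagen chaperone of the ER. With ATRA 0 of 23 were higher and 0 lower, and the median was 0.12 beside 0.00 over all counted genes. A difference above 0 was found for 19 of 23, and for 4265 of 8616 counted genes. The list as a whole was not rescaled. Of its chaperone genes, Hspb1, Hspb8, Hspd1, Hspe1, Dnajb1, Dnajb4 and Hspa4l turned from above to below 0 when rescaled. Hspa1a, Hspa1b, Hspa8, Hsp90aa1 and Hsph1 stayed above 0, and Dnaja1 stayed below. Among other heat shock factor genes, Hsf2 was at 0.991 FPKM with ATRA, 1.88 with SAHA, 2.38 with both and 1.15 with vehicle, while Hsf3, Hsf4 and Hsf5 were at most 0.0537 FPKM in any library.

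Chaperones of the ER, the compartment left out by the symbol rule, are given for comparison. Of 16 listed, 8 were higher and 0 lower with both compounds than with vehicle, beside 11.1% and 12.6% of all counted genes. Their median was 0.97, with 13 differences above 0 and 3 below. The 58 counted genes of the symbol rule had 2 higher and 2 lower and a median of 0.22. Serpinh1, named above, was not among the 16. It was at 85.7 FPKM with ATRA, 4.25 with SAHA, 10.6 with both and 80.3 with vehicle. Its difference from vehicle with both was -2.81. Hspa5, the ER Hsp70, was at 63.6 FPKM with ATRA, 81.0 with SAHA, 367 with both and 47.1 with vehicle. Its cytosolic relative Hspa8 differed from vehicle by -0.13 and its mitochondrial relative Hspa9 by -0.92 in the same comparison. Among counted genes that the symbol rule did reach, 4 were assigned to the ER here (Hspa13, Dnajc1, Dnajc10 and Dnajb12). These had 0 higher and 0 lower with both compounds, beside the same 11.1% and 12.6%, and a median of -0.14. Their differences ran from -0.79 to 0.52, with 1 above 0 and 3 below. The assignment may not cover every member of that compartment, and with 4 genes the sign of the median can change with it. With 1 library per group the difference between the lists was not tested.

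The value for both compounds was also set against the sum of the differences of ATRA and SAHA from vehicle. This departure from additivity had a median of 0.07 over the 58 chaperone genes and 0.15 over all counted genes. It was 1 or more for Dnaja3 (1.20) and Hspa9 (1.01) and -1 or less for 0 members, where 4.69% of all counted genes were at 1 or more and 1.73% at -1 or less. Rescaled, Dnaja3 was at 0.78 and Hspa9 at 0.56, 0 members were at 1 or more, and 4 were at -1 or less (Dnajb4, Hspa13, Hspb1 and Hsph1). As deposited, Hspb1 had the lowest value, -0.88.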

How the data were processed

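The deposited values are FPKM, with 1 column for each of 4 libraries of rRNA-depleted total RNA, per the file headers and the labels' protocols. The submitters' processing notes name Trimmomatic 0.32, Cuffdiff and the mouse build mm10. The aligner, annotation, strand setting and scaling were not given in the sources used here. No counts were used. From the smallest step of FPKM times length in low genes with 1 annotated transcript (266 to 322 per library), 1 FPKM over 1 kilobase stood for about 96.9 fragments with ATRA, 96.8 with SAHA, 104 with both and 96.6 with vehicle. At that rate the lowest library of Hspa1a held about 609 fragments. This is an estimate, so no counting interval is given. Such an interval would cover counting error and not differences between cultures.

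Differences of log2(FPKM + 1) were computed for all rows, with a minimum mean of 1 FPKM and a mark of 1, and tested on simulated data. Named genes were the members past the mark, fixed main members of each family, and up to 4 leading genes of a list. Others named, such as those nearest the mark, the overlapping genes and members set beside these, were chosen after their values were seen. Members, lists and rules were chosen with earlier results of these data known. Coordinates and exon overlaps are from GENCODE M21 on mm10, to which 79 of 79 members matched. Exons of 16 counted members overlap those of another gene in the table. Promoters are from RefSeq (GRCm38.p6) and transcript identities from BLAST+ 2.17.0. Python 3.11.15 and pandas 2.3.3 were used. Alternatives were a pseudocount of 0.1, no filter, a mean of at least 5 FPKM, centring on the median, and rescaling to rows outside the 10 highest.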

Additional observations from a re-analysis of the deposited data

Results flagged for a closer look

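For 2 chaperone genes the difference made by ATRA had opposite signs with and without SAHA and values at least 1 apart. That gap is the departure from additivity above. It was 1 or more for 3.45% of counted members and for 4.69% of all counted genes, so it does not set chaperone genes apart. How many of all counted genes also had opposite signs was not counted. Other members, such as Hspa4 and Hspa8, had opposite signs with values closer together. The contrast between these differences was not tested because each group has 1 library. Dnaja3 differed by -0.33 on the log2 scale for ATRA against vehicle and by 0.87 for the combination against SAHA, which are apart by 1.20. Hspa9 differed by -0.02 and 0.99 in the same comparisons, which are apart by 1.01. Its -0.02 is too small to be read as a direction. Rescaled to rows outside the 10 highest, both gaps were under 1. Dnaja3 then differed by -0.48 and 0.29, apart by 0.78, and Hspa9 by -0.20 and 0.36, apart by 0.56.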

How the results depend on the processing

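No paired analysis was possible because each group has 1 library, and no library could be left out for the same reason. Counts of chaperone genes past the 2-fold mark moved as follows. With a pseudocount of 0.1 FPKM, SAHA against vehicle had 3 higher, the combination against vehicle 5 higher and 4 lower, against SAHA 3 higher, and against ATRA 5 lower. With a mean of at least 5 FPKM, 0 were higher with SAHA and 1 with the combination against vehicle. Centred on the median of all counted genes, 2 were higher with SAHA and 4 lower with the combination against vehicle. Rescaled to rows outside the 10 highest, 8 were higher with SAHA, 1 was higher and 4 lower with the combination against vehicle, and 2 were lower with the combination against SAHA. The members' median then changed sign for ATRA against vehicle (-0.10) and for the combination against SAHA (-0.37). The cause was not tested. Of 795 values of named genes under these settings, 776 kept their side of the mark, 17 passed it newly and 2 (Hspa14, above) no longer did. Another 55 had no value because the gene's mean was under the filter, among them Hspb6 when rescaled, which so left the lower genes with SAHA. The settings that change only the filter leave the value of a gene as it was. The 776 include 170 values with no filter and 120 with a mean of at least 5 FPKM. Those could not move, so they say nothing about stability. With no filter, and among the 42 counted members without exon overlap (a setting chosen after seeing the data), every count stayed within 1.5 times. Depth limits mainly the genes near 1 FPKM.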
